A study of Mus musculus with 3 samples.

Results

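The genes described here are the small nuclear RNA (snRNA) genes of the mouse, the short noncoding RNAs at the core of the spliceosome, together with their many annotated variants. A gene was included when every transcript listed for it carried the biotype snRNA. This gave 1383 genes, each with 1 transcript, of the 55450 genes in the second transcript table and the 55536 in the gene table. Of these, 11 had a symbol naming an snRNA (Rnu1a1, Rnu2-10 and the like) and 1372 had a Gm symbol with a number. Transcript lengths ran from 54 to 200 nt with a median of 107 nt, and 409 genes had exactly 107 nt, the length of Rnu6.

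The cells were primary macrophages grown from bone marrow of C57BL/6J mice, and the sequenced RNA was what stayed with their chromatin, total RNA with ribosomal RNA depleted. All 3 libraries, labelled biological replicates 1, 2 and 3, belong to 1 group. Its cells were exposed to Lipid A, the TLR4-activating part of bacterial lipopolysaccharide, at 100 ng/ml for 12 h, kept without it for 12 h and then given 100 ng/ml again for 20 min. Other exposures were not analysed here, so the comparisons are between snRNA genes, between libraries and between the deposited tables. Replicate 1 was made from 1 µg of RNA, replicate 2 from 250 ng and replicate 3 from 500 ng per the labels, so amount and replicate cannot be told apart. The labels give no sex or age, list the same donor entry for every library, and give a library size range of 250 to 400. Differences between libraries may therefore in part be technical. Total expected counts on genes were 13610746, 24105317 and 16517065 in the gene table, and total estimated counts were 21850657, 41737153 and 28393100 in the second table. All 6 macrophage markers were at 1 TPM or more in every library, with a summed level of 706 to 861 TPM. None of 5 neutrophil, 3 B cell and 3 T and NK cell markers was, with summed levels of 0.590 to 1.32, 0.11 to 0.36 and 0 to 0.0900 TPM.

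Most introns are removed by the major spliceosome, in which U1 pairs with the 5′ splice site and U2 with the branch point, before U4, U5 and U6 join and U6 takes over at the 5′ splice site. A rarer class of introns is removed by the minor spliceosome, in which U11 and U12 take the places of U1 and U2. U6 and U6atac are made by RNA polymerase III and carry a ring of LSm proteins, while the other snRNAs named here are made by RNA polymerase II and carry a ring of Sm proteins on a short run of U bases. U7, also annotated as an snRNA, acts in the 3′ end processing of histone messages and not in splicing. Mammalian genomes hold several true copies of some snRNAs and a far larger number of dispersed copies, most of them taken to be pseudogenes.

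To sort the 1383 genes by role, each transcript was aligned to the named ones and assigned to a class at 80% identity or more over at least 60% of the named RNA. U6 was the largest class with 637 genes, followed by U1 with 84, U7 with 43, U2 with 18, U5 with 11, U11 with 5 and U12 with 4. The remaining 581 genes matched none, and U4, U4atac and U6atac had no named gene to match. The spliceosomal label therefore held by sequence for 759 genes, while 43 matched U7. At 70 and 90% identity, limits chosen after seeing the data, it held for 1027 and 445 genes, and 45 and 7 matched U7.

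The sequences below are the GENCODE M21 transcripts, 5′ to 3′ as DNA letters, of genes that held most counts in their class or stand for it. Capitals mark the element of each RNA that is known to pair with the pre-messenger RNA. The first is U1, whose capitals are the letters that pair with the 5′ splice site, in 3 forms.
Rnu1a1: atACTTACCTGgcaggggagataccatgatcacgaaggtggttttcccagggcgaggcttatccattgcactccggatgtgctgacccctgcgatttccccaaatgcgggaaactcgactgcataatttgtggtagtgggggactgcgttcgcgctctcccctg
Gm22513: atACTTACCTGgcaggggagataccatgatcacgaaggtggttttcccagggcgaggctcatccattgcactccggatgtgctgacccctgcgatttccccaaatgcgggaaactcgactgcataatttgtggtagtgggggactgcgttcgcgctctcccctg
Rnu1b6: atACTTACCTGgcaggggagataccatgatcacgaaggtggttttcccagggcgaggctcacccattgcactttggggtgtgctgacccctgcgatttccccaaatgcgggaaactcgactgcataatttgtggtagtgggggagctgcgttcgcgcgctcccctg
The second is U2, whose capitals are the branch point recognition letters. Gm25939 had the highest mean estimated count among the snRNA genes.
Rnu2-10: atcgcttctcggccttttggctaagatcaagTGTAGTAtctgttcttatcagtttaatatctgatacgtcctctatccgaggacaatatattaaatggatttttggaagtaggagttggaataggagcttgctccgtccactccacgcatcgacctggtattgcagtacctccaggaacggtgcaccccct
Gm25939: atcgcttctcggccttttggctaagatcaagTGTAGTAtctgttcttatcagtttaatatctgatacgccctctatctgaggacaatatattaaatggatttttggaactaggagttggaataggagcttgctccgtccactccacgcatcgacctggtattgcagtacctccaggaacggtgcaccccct
The third is U12, the minor counterpart of U2, with its branch point recognition letters in capitals, and U11, shown without capitals because no element was searched in it.
Rnu12: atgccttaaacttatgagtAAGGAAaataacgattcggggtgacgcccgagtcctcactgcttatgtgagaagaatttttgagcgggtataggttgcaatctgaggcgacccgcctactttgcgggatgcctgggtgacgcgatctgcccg
Rnu11: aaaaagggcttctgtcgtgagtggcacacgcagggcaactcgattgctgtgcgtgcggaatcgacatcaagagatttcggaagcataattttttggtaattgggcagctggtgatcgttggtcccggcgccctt
The last is Gm24265, which matched no named gene and had the highest mean estimated count of the unmatched ones. From knowledge outside these files its letters are those of U4, the partner that keeps U6 inactive until activation, and it was kept in the unmatched group because no named U4 gene was there to compare.
Gm24265: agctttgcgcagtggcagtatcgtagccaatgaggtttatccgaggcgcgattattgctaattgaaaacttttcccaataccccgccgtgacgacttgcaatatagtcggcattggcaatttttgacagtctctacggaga
Counted from 1 at the 5′ end with the reference base first, Gm22513 differs from Rnu1a1 by T60C alone. Gm25939 differs from Rnu2-10 by T69C, C78T and G109C, all outside the capitals. Rnu1a1 lies at chr11:87422867-87423030 on the plus strand inside an intron of Tex14, Rnu2-10 at chr11:101658238-101658428 on the plus strand outside other genes, Gm25939 at chr1:72255008-72255198 on the plus strand in an intron of D230017M19Rik, and Rnu12 at chr15:83149644-83149794 on the plus strand outside other genes (mm10).

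In the share of sequenced fragments the snRNA genes were a small group in both tables, with a slightly higher share in the gene table. In the gene table they took 0.235% of gene counts in replicate 1 (95% Wilson interval 0.233 to 0.238%), 0.153% in replicate 2 (0.151 to 0.155%) and 0.145% in replicate 3 (0.144 to 0.147%). In the second table they took 0.206% (0.204 to 0.208%), 0.146% (0.144 to 0.147%) and 0.139% (0.137 to 0.140%). The means were 0.178% ± 0.0498 (SD, n = 3) and 0.163% ± 0.0371 (SD, n = 3), closer to each other than the spread between libraries. Within each library, however, the gene table gave the higher share. Replicate 1 was highest in both tables. The Wilson intervals cover counting error only, since reads are not independent molecules.

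In TPM, the deposited transcript level, where counts are divided by effective length before scaling, the same genes were a large group and the tables differed. The gene table gave them 172226, 113735 and 133324 TPM in replicates 1, 2 and 3, or 17.2, 11.4 and 13.3% of all TPM. The second table gave 69676, 43029 and 47617 TPM, or 6.97, 4.30 and 4.76%. Every gene table value was above every second table value, and the ratio of the summed TPM between the tables was 2.64 ± 0.164 (SD, n = 3).

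**Figure D1:**
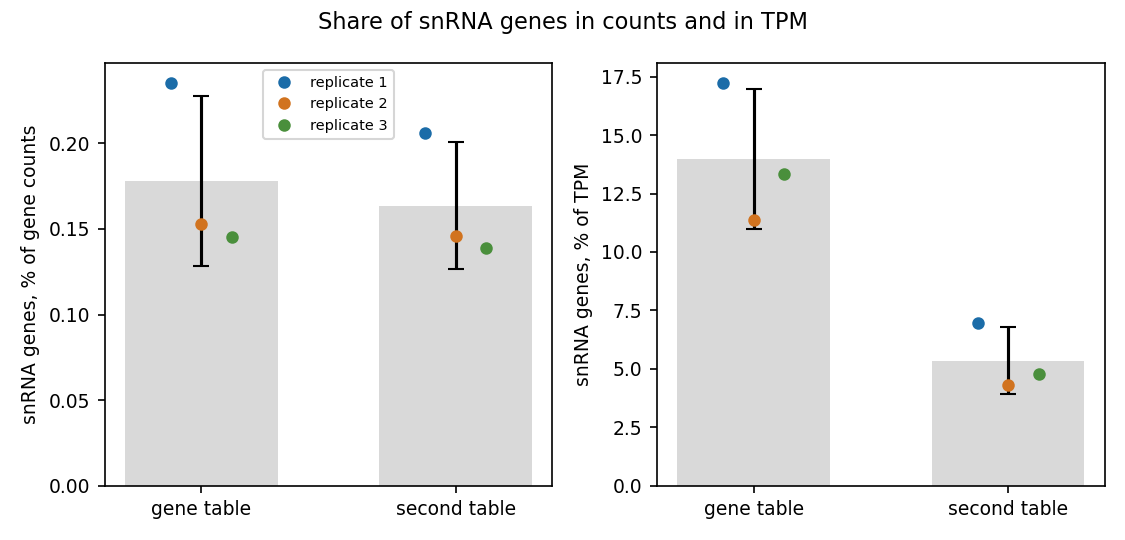
Share of the 1383 snRNA genes in gene counts (left, %) and in TPM (right, %) in the gene table and the second table. Bars are means over the 3 libraries, error bars are SD and points are libraries; the count shares overlap between tables (0.178 and 0.163% on average), while the TPM shares do not (14.0 and 5.34%).

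Effective length, the number of positions from which a fragment of the library's sizes could have come, differed between the tables for every snRNA gene length. The gene table gave an effective length of 0 to 1085, 1101 and 1093 of the 1383 genes in replicates 1, 2 and 3. The longest RNA at 0 in each had 123, 126 and 125 nt, and the shortest above 0 had 124, 127 and 126 nt, so the change fell at a single length in each library. The second table never went below 14.8, 14.7 and 12.7 nt. For the 107 nt of U6 the gene table gave 0 in every library and the second one gave 16.2, 16.0 and 16.7 nt. For the 164 nt of Rnu1a1 the gene table gave 9.89, 7.5 and 7.56 nt and the second one gave 34.6, 35.8 and 36.9 nt. For the 191 nt of U2 the values were 21.1, 16.0 and 16.1 nt in the gene table and 48.5, 50.7 and 51.4 nt in the second. The gene table's divisor was smaller wherever it was above 0, and in replicate 2 a further 5 snRNA genes had counts there but an effective length and a TPM of 0.

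**Figure D2:**
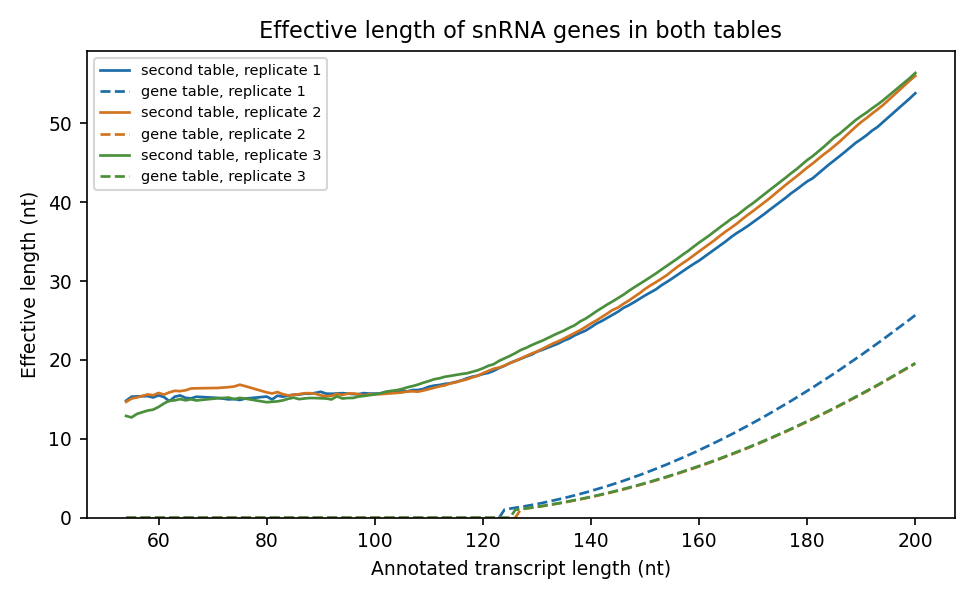
Effective length (nt) against annotated length (nt) for snRNA genes, solid for the second table and dashed for the gene table, by library. The dashed lines stay at 0 up to 123 to 126 nt and reach 19.5 to 25.7 nt, while the solid lines stay between 12.7 and 56.4 nt.

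A gene was called detected with at least 3 counts in each library. By this rule 32 of 1383 snRNA genes (2.31%) were detected in the gene table, against 30.9% of all genes and 0.862% of other genes of at most 200 nt. By the same rule 250 (18.1%) were detected in the second table, against 48.6% of all genes and 19% of other short genes, so the latter share was near that of other short genes. By level instead, 36 snRNA genes (2.60%) had at least 1 TPM in every library of the gene table, against 24.1% of all genes, and 322 (23.3%) in the second table, against 37.9%. All 32 were among the 250. Detection in the second table with fewer than 3 counts in each library of the gene table applied to 211 snRNA genes (15.3%), against 14% of all genes and 17.5% of other short genes. Of these 211, 172 had an effective length of 0 in the gene table in every library, against 1085 (78.5%) of all 1383 snRNA genes. U6 genes (87) and unmatched genes (103) made up 190 of the 211, and 637 and 581 of the 1383. Both counts were thus near the share over all snRNA genes. At the other end, 872 genes had 0 counts in every library of the second table and 1310 in every library of the gene table. The 32 genes detected in both tables were 17 of U1, 11 of U2, 1 of U12 and 3 unmatched. Of these, 14 of the U1 genes and 6 of the U2 genes had an identical copy. Identical copies hold equal counts, so they are detected together.

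By length, all 193 genes under 100 nt and 892 of the 973 genes of 100 to 149 nt had no effective length in the gene table in any library. The 216 genes of 150 to 199 nt, which include U1 and U2, held 99.6, 98.1 and 99.2% of snRNA counts in the gene table and 86.3, 82.2 and 82.6% in the second. For the 32 genes detected in both, the mean count in the second table was 1.02 to 26.5 times that in the gene table with a median of 1.16, while total gene counts were 1.61, 1.73 and 1.72 times as high in replicates 1, 2 and 3. Rnu12 had the highest ratio. In TPM the order turned: the gene table value was 0.351 to 6.31 times that of the second table with a median of 5.22, and Rnu12 had the lowest ratio.

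By class, U2 led in every library and both tables. U2 genes held 27695, 39016 and 24857 estimated counts in replicates 1, 2 and 3 of the second table, which was 61.5, 64.2 and 63.2% of snRNA counts. U1 genes followed with 9756, 8413 and 5856 counts, or 21.7, 13.8 and 14.9%. The 637 U6 genes together held 5.08, 6.93 and 6.52%, the 581 unmatched ones 9.31, 11.8 and 12.3%, and the 4 U12 genes 1.89, 2.57 and 2.58%. U5 held 0.477, 0.588 and 0.536%, and U7 0.0711, 0.0708 and 0.0711%. U11 held 1 count in replicate 1 and none in the others. In counts, U2 was above U1 without overlap between libraries, and U1 was above U6 in every library.

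In the gene table U2 held 71.2, 80.4 and 78.5% of snRNA counts and U1 28.2, 17.5 and 20.4%. U5, U7 and U11 were at 0, and U6 had 2 counts in replicate 2 and none elsewhere. The ratio of U2 to U1 counts was 2.84, 4.64 and 4.24 in the second table and 2.53, 4.59 and 3.86 in the gene table, lowest in replicate 1 in both. Divided by effective length, the gap narrowed: mean summed TPM was 24029 ± 6552 (SD, n = 3) for U2 and 9474 ± 5292 (SD, n = 3) for U1 in the second table, and 81601 ± 10280 (SD, n = 3) and 51626 ± 22720 (SD, n = 3) in the gene table. In the gene table's replicate 1 these were 91491 TPM for U2 and 76875 TPM for U1, and in replicates 2 and 3 U2 was at 70972 and 82341 TPM against 32832 and 45172 TPM for U1, so the ranges of both classes overlap across libraries there. U6 and the unmatched genes moved up on this scale: in the second table U6 stood at 7827, 6637 and 6795 TPM and the unmatched genes at 12324, 9138 and 10690 TPM, against 15557, 5926 and 6939 TPM for U1. U1 was thus below the unmatched genes in replicates 2 and 3 and below U6 in replicate 2. In bulk RNA, a different number of cells and a different amount of RNA per cell cannot be told apart.

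**Figure D3:**
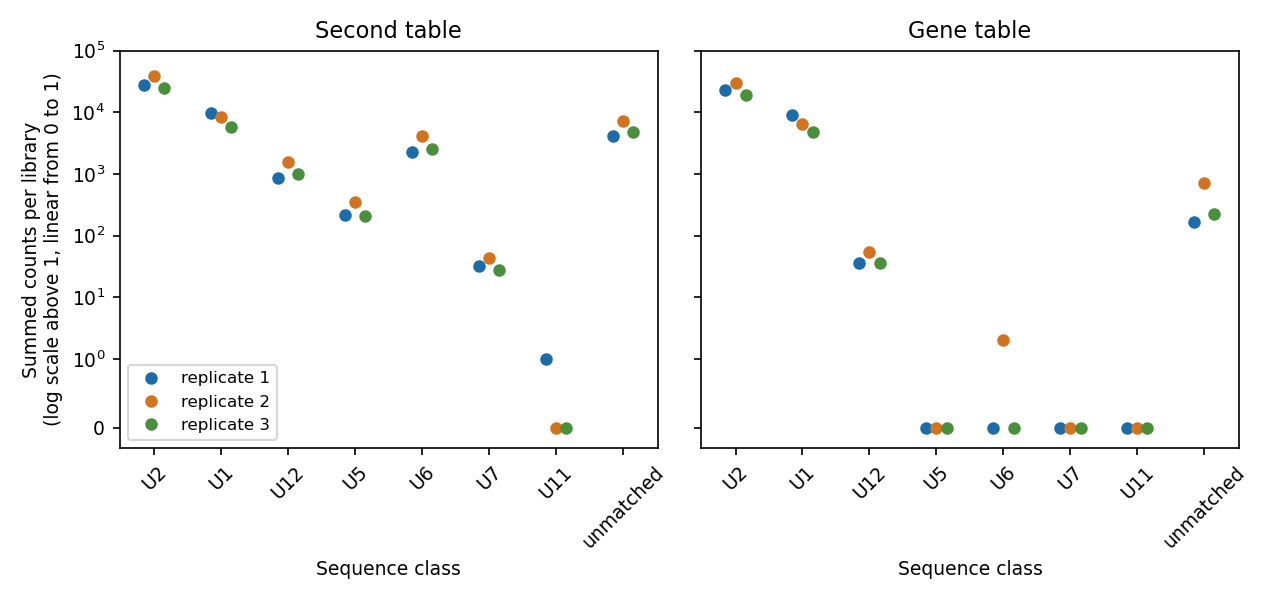
Summed counts of each snRNA class per library in the second table (left) and gene table (right), on a log scale above 1 and linear from 0 to 1. U2 is highest in both panels, and U5, U7 and U11 are at 0 in the gene table while U5 and U7 are above 0 in the second table.

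Gm22513, the 1-base variant shown above, at chr12:54696782-54696945 on the plus strand, had 2529, 2240 and 1536 estimated counts in replicates 1, 2 and 3, and 2407, 1832 and 1340 expected counts in the gene table. Rnu1a1 had 638, 568 and 389 estimated counts and 689, 505 and 364 expected counts. Gm22513 was thus the leading U1 gene in both tables, above Rnu1a1 in each library. Rnu1a1 shares its sequence with 6 other genes, and the 7 together held 4469, 3976 and 2726 estimated counts, more than Gm22513. The 8 U1 genes of chromosome 12 held 59.9, 61.7 and 61.1% of U1 counts and the 14 of chromosome 3 held 15.9, 15.3 and 15.3%. Of the 7 identical genes 5 lie on chromosome 12 and 2 on chromosome 11, so these shares depend on the equal split between copies.

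The variants named for U1b were lower. Rnu1b6, identical to 2 further genes, had 71.4, 37.2 and 22.4 estimated counts. Rnu1b1 and Rnu1b2, identical to each other, had 11.4, 12.7 and 10.1 each. Gm24924 and Gm26244, 2 near copies of Rnu1a1 inside introns of Ss18 and Rock1 and named after their values were seen, were split differently by the tables. Gm24924 had 572, 282 and 157 estimated counts and Gm26244 had 137, 34.9 and 76.6, while the gene table gave each of them the same 94.5, 0.05 and 61.8 expected counts. The splice site recognition letters ACTTACCTG, searched on the transcript strand, stood in 43 of the 84 U1 genes and in 0.0340% of 5864 other transcripts of at most 200 nt. Of those 43, 23 were detected in the second table, against 8 of the 41 without the letters, and they held 98.1, 97.6 and 97.7% of U1 counts. U1 genes of at least 95% identity to a named one were detected in 21 of 30 cases, those of 90 to 95% in 1 of 13 and those of 80 to 90% in 9 of 41. Identical copies were counted as separate genes in these detection numbers.

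U2 counts came mostly from chromosomes 1 and 11. The 4 U2 genes at chr1:72226240-72255198 held 38.9, 36.4 and 38.5% of U2 counts and the 7 on chromosome 11 held 60.4, 62.6 and 60.6%. Gm25939 had 3775, 5023 and 3377 estimated counts against 3165, 3929 and 2660 expected counts. Gm23472, on chromosome 1, and Gm23444, on chromosome 11, are identical and had 4138, 4986 and 3011 estimated counts each, so a chromosome cannot be assigned to their reads. Rnu2-10 and the identical Gm24950, Gm23849 and Gm23971, all on chromosome 11, had 3136, 4778 and 3003 estimated counts each and 2541, 3609 and 2263 expected counts each. Gm24497, with G109C and C186A relative to Rnu2-10, had 2035, 2681 and 2238 estimated counts. Gm25360, with C78T, A95G, G109C and C154T, had 821, 1521 and 931. As single genes, with the counts of identical copies split equally, 8 U2 genes exceeded every U1 gene in mean estimated counts. By gene table TPM none did: Gm22513, of U1, had a mean of 14144 ± 5830 TPM (SD, n = 3) and Gm25939, the highest of U2, 11238 ± 1684 TPM (SD, n = 3), which differ by less than the spread of Gm22513.

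The lower U2 genes were named after their values were seen. Gm26316, which differs from Rnu2-10 by C170T alone, had 60.1, 322 and 49.0 estimated counts and was highest in replicate 2. Gm22973, with 9 differences, had 110, 278 and 122. The branch point letters TGTAGTA stood in 15 of 18 U2 genes and in 0.239% of the other short transcripts, and 14 of those 15 were detected while none of the 3 without them was. Gm25939, the leading gene by mean estimated counts, held 8.41% ± 0.160 (SD, n = 3) of snRNA counts in the second table. The 10 leading genes held 66.6% and the 20 leading genes 79.2%. The lead was narrow, with a mean of 4058 counts for Gm25939 and 4045 for the identical Gm23472 and Gm23444. In mean TPM of the second table Gm23472 and Gm23444 were higher, at 3250 against 3222. Identical copies were counted as separate genes in all these numbers, with their counts split equally. The 4 genes with the sequence of Rnu2-10 together held 12542, 19113 and 12011 estimated counts, more than Gm25939.

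Identical copies could not be separated by either table. The 1383 genes had 1306 distinct sequences, and 96 genes fell into 19 sets of identical sequence. Of these sets 10 had counts in the second table and 7 in the gene table, and in each of them the copies had equal values (within 0.01 counts). The gene table also deposits a posterior standard deviation of each count, which was 1681, 1049 and 845 for Rnu2-10. Among genes with a sequence of their own it differed widely, with 0.830, 0.970 and 1.15 for Gm25939 and 1162, 990 and 992 for Gm24497. The largest set was the 43 genes with the sequence of Rnu6, which had 0 counts in every library of both tables.

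The counts of the U6 class therefore lay on genes with other sequences than Rnu6, and whether these reads came from U6 RNA was not tested. Rnu6 and Rnu6-ps2 were at 0 in every library of both tables, where 3 counts would be 0.137, 0.0719 and 0.106 CPM (counts scaled to library size) in the second table. Gm23092 and Gm24242, 2 identical genes on chromosome 5 named after their values were seen, had 96.5, 260 and 125 estimated counts each and 0 expected counts. Of the 637 U6 genes, 211 had a count in some library of the second table and 3 in the gene table. Detection did not rise with likeness to a named U6 gene: 16 of 219 U6 genes at 95% identity or more were detected in the second table, 25 of 152 at 90 to 95%, and 46 of 266 at 80 to 90%. The group at 95% or more includes the 43 identical genes with the sequence of Rnu6, so its genes are not independent. Position was not held equal between the groups.

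U5 genes had counts in the second table only. Rnu5g had 60.5, 87.3 and 57.5 estimated counts. Gm25099, Gm24871 and Gm25313, the other detected U5 genes and named after their values were seen, had 46.8, 179 and 55.8, then 63.7, 39.9 and 54.8, and then 28.6, 30.7 and 34.5. The order of the U5 genes changed between libraries. All 4 carried an effective length of 0 in the gene table, where they were at 0 counts.

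In the minor spliceosome, Rnu12 was detected and Rnu11 had no counts. Rnu12 had 835, 1537 and 996 estimated counts in replicates 1, 2 and 3 of the second table, but 36.0, 55.0 and 36.0 expected counts in the gene table. In TPM it stood at 1613, 1315 and 1426 in the second table and at 514, 465 and 551 in the gene table, below in every library. Of the 32 genes detected in both tables, 2 had the lower mean TPM in the gene table, Rnu12 and the U1 gene Gm24145, which was named for this reason after its values were seen and had means of 58.9 and 98.9 TPM. Rnu11, at chr4:132270080-132270213 on the minus strand opposite Gm28872, was at 0 counts in all libraries of both tables, with effective lengths of 2.34, 1.82 and 1.85 nt in the gene table and 22.1, 22.4 and 23.4 nt in the second. Rnu7, the histone processing RNA, was also at 0 in both tables, and 2 of its 43 matched genes were detected in the second.

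The unmatched group was led by Gm24265, at chr5:115489459-115489599 on the plus strand, with 368, 1251 and 558 estimated counts and 93.0, 444 and 154 expected counts. Gm24407 lies beside it at chr5:115490254-115490394 and differs by G88A and C99A, with 115, 523 and 150 estimated counts and 37.0, 230 and 45 expected counts. Both were highest in replicate 2 and both, named after their values were seen, were outside other genes. Of 6 genes in this sequence family, 5 were detected in the second table and 2 in the gene table, and their sum was 503, 1793 and 726 estimated counts. Next among the unmatched genes came Gm25605, in an intron of Aoah, with 463, 521 and 373 estimated counts against 0, 1 and 0 expected counts. Gm24996, in an intron of Nfe2l2, had 235, 225 and 333 against 0, and Gm24198, in an intron of Fnip1, had 192, 219 and 165 against 0. These were also named after their values were seen.

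The run of letters that resembles an Sm site, ATTTNTG or ATTTNNTG on the transcript strand, was searched in all genes. It stood in 322 of 1383 snRNA genes (23.3%) and in 6.43% of the 5864 other transcripts of at most 200 nt. Of the genes with it, 26.7% were detected in the second table, and of those without it, 15.5%. Within classes the shares were 46.0 and 9.52% for U1 and 17.2 and 13.1% for U6, while among unmatched genes they were 17.2 and 19.4%, the other way round. Genes with it held 89.1, 86.9 and 86.3% of snRNA counts. It stood in 63 of 84 U1, 16 of 18 U2 and 10 of 11 U5 genes and in 87 of 637 U6 genes, the class that carries LSm proteins. A match describes letters and is not a site.

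Among the snRNA genes, where a gene lay went with whether it was detected. Other short genes were not sorted by position, so whether this is particular to snRNA genes was not tested. Of the 288 snRNA genes inside an intron of a gene on the same strand, 108 (37.5%) were detected in the second table. Of the 306 on the opposite strand of another gene, 94 (30.7%) were, and of the 765 outside other genes, 46 (6.01%) were. The remaining 24 overlapped an exon on the same strand, and 2 of them were detected. The genes outside others nevertheless held 53.4, 54.4 and 51.9% of snRNA counts, and 25 of those 46 were U1 or U2. Within introns, 97 of 139 (69.8%) were detected when the surrounding gene had a mean of at least 1 TPM and 11 of 149 (7.38%) when it had less. On the opposite strand the shares were 88 of 171 (51.5%) and 6 of 135 (4.44%).

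The share rose with the level of the overlapping gene: for same-strand introns it was 41.3% of 46 genes at 1 to 10 TPM, 83.7% of 86 at 10 to 100 TPM and 6 of 7 at 100 TPM or more. Across the 288 genes the Spearman correlation of the overlapping gene's TPM with the snRNA gene's CPM was 0.77, and across the 306 on the opposite strand it was 0.60. Both are descriptions across genes of the same 3 libraries. U6 and the unmatched genes showed a similar contrast. In same-strand introns of genes of at least 1 TPM, 41 of 59 U6 genes and 44 of 62 unmatched genes were detected. In introns of genes below it 0 of 54 and 4 of 76 were, and outside genes 7 of 363 and 12 of 296. Opposite genes of at least 1 TPM, 39 of 87 U6 genes and 48 of 76 unmatched genes were detected. The strand of the libraries is not stated, and reads of an snRNA gene, of an unspliced intron around it and of a gene on its other strand cannot be told apart here. Of the 211 genes detected in the second table only, 95 lay in same-strand introns, 90 opposite another gene, 24 outside and 2 on an exon, and 89 and 86 of the first 2 groups overlapped a gene of at least 1 TPM.

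**Figure D4:**
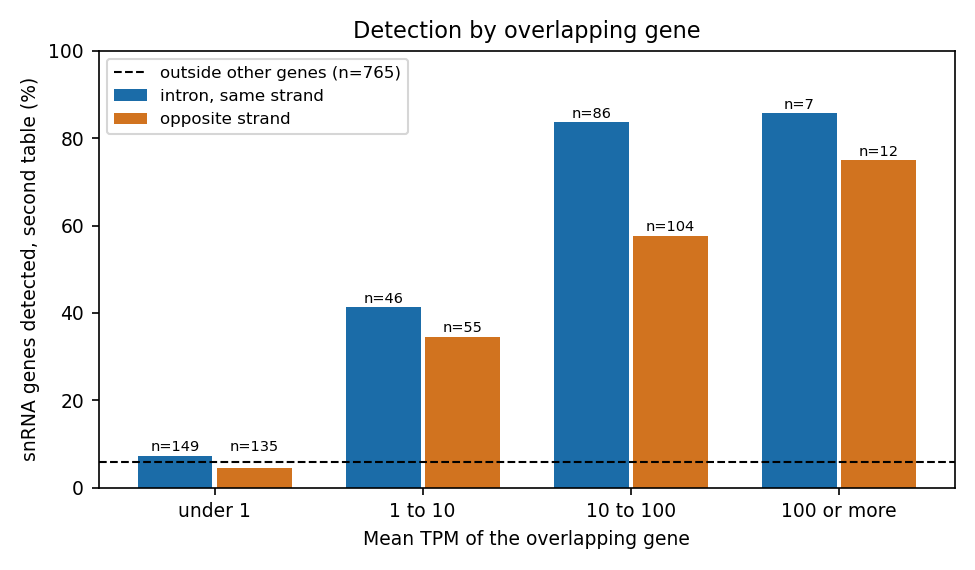
Share of snRNA genes detected in the second table (%) by mean TPM of the overlapping gene, for genes inside same-strand introns and genes on the opposite strand, with the number of genes above each bar and a dashed line for genes outside others. From below 1 TPM to 10 to 100 TPM the share goes from 7.38 to 83.7% in introns and from 4.44 to 57.7% on the opposite strand, while the dashed line is at 6.01%.

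Examples show both kinds of gene. Aoah, which encodes an enzyme that removes acyl chains from lipopolysaccharide, had 559, 351 and 436 TPM, and Gm25605 inside it had 20.3, 12.8 and 13.4 CPM. Nfe2l2, which encodes a regulator of the oxidative stress response, had 175, 68.6 and 167 TPM, and Gm24996 had 10.3, 5.52 and 12.0 CPM, lowest in replicate 2 like its surrounding gene. In contrast D230017M19Rik, around Gm25939, had 0.980, 0.850 and 0.720 TPM while Gm25939 had 165, 123 and 121 CPM. Gm28872, opposite Rnu11, had 192, 140 and 150 TPM while Rnu11 stayed at 0.

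Between libraries, snRNA genes varied more than genes in general, in sets that were not matched for count level. Over the 201 snRNA genes with a mean of at least 10 estimated counts, the SD of log2 CPM had a median of 0.35, against 0.22 over all 25303 genes with that mean. With a mean of at least 50 counts it was 0.33 over 73 snRNA genes and 0.19 over 19097 genes. Thus 73 of the 201 snRNA genes but 19097 of the 25303 genes reached that mean. The part of count level in the difference was not tested. The lower and upper quartiles over the 201 were 0.22 and 0.53. Among the 201, 99 (49.3%) were highest in replicate 1, against 35.7% of all genes. The classes differed in their spread: the median SD was 0.58 for 27 U1 genes, 0.51 for 4 U5 genes, 0.34 for 68 U6 genes, 0.33 for 85 unmatched genes and 0.24 for 14 U2 genes. Identical copies, which hold equal values, were counted as separate genes in these numbers. The U1 median is the value of Rnu1a1, shared by the 7 genes of its sequence.

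The U1 class as a whole stood at 428, 206 and 210 CPM in replicates 1, 2 and 3, so that replicate 1 was apart and the highest library was 2.07 times the lowest. U2 stood at 1214, 957 and 893 CPM, with a ratio of 1.36. U6 stood at 100.3, 103 and 92.3 CPM and U12 at 37.2, 38.3 and 36.4 CPM, close in all libraries. The U1 genes Gm22513, Rnu1a1 and Rnu1b6, which are part of the U1 sum, were also highest in replicate 1. Gm22513 had 111, 54.9 and 55.2 CPM, Rnu1a1 had 28.0, 13.9 and 14.0 CPM and Rnu1b6 had 3.13, 0.912 and 0.805 CPM. Other U1 genes did not all follow. The 3 of chromosome 1 held 0.487% of U1 counts in replicate 1, against 1.065 and 1.168% in replicates 2 and 3. Rnu12, with 36.6, 37.7 and 35.8 CPM and an SD of 0.04 on the log2 scale, was among the 10 least variable. Gm24265, at 16.2, 30.7 and 20.1 CPM, and Gm26316, at 2.64, 7.90 and 1.76 CPM, were highest in replicate 2 instead. Replicate 1 had 1 µg of starting RNA, the largest amount, and it also had the largest share of counts on entries that are not genes, 1.71% of the second table against 0.332 and 0.225% in replicates 2 and 3. The part of either in these differences was not tested.

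**Figure D5:**
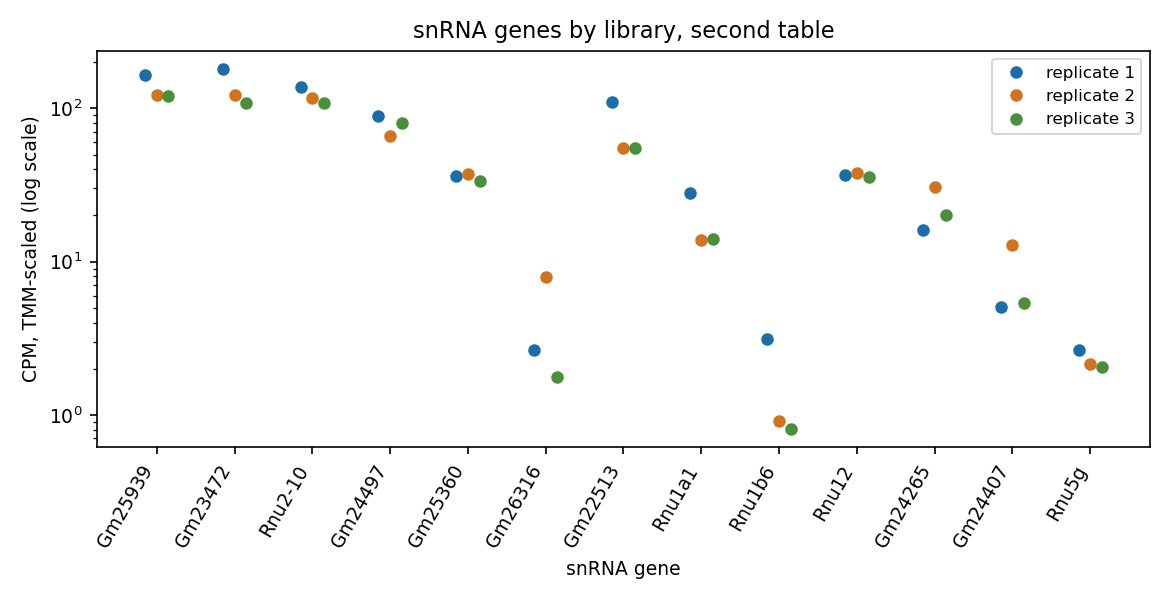
CPM of 13 snRNA genes in the second table by library, on a log scale, scaled with TMM factors. The U1 genes Gm22513, Rnu1a1 and Rnu1b6 are about 2 to 4 times as high in replicate 1 as in the lowest library, Rnu12 is level, and Gm26316, Gm24265 and Gm24407 are highest in replicate 2.

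The genes for proteins that bind, make or mature snRNAs were measured in the same libraries. Of 95 such genes, 88 had at least 1 TPM in every library of the gene table and 93 in the second table, against 45.2% of protein-coding genes in the gene table. All 7 LSm proteins, all 3 U1 proteins and all 13 proteins of the U4/U6.U5 complex were among the 88. Of the U2 proteins 11 of 12 were, with Sf3b1, part of the complex that holds the branch point, at 252, 243 and 259 TPM and Sf3b2 at 51.8, 46.7 and 62.5 TPM. Snrnp70, which encodes the protein that binds the first stem of U1, had 182, 157 and 197 TPM, while Snrpa and Snrpc, the other U1 proteins, had means of 16.0 ± 2.04 and 5.92 ± 0.201 TPM (SD, n = 3).

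Of the Sm proteins 6 of 7 had at least 1 TPM in every library, with a list median of 5.74 TPM against 4.46 TPM for the LSm proteins, Snrpd1 at 10.9, 8.28 and 9.44 TPM and Snrpf at 0.440, 0.340 and 0.620 TPM. Of the minor spliceosome proteins 6 of 7 were, with Zcrb1 at 78.8, 59.9 and 65.6 TPM, Rnpc3 at 46.7, 31.8 and 36.9 TPM and Snrnp25 at 0.6, 1.25 and 0.370 TPM. Snapc3, a subunit of the complex that binds snRNA promoters, had 61.8, 38.7 and 56.5 TPM, and Ints6, a subunit of Integrator, which cleaves the 3′ end of snRNAs made by RNA polymerase II, had 65.0, 41.4 and 49.4 TPM. Of the genes for transcription and 3′ end formation 23 of 24 had at least 1 TPM in every library, with Snapc2 the lowest at a mean of 0.883 ± 0.212 TPM (SD, n = 3). Of the maturation genes 19 of 22 did, led by Tgs1, which makes the trimethyl cap, at 77.4, 54.0 and 54.9 TPM, and Usb1, which trims the 3′ end of U6, at 52.8, 39.9 and 45 TPM. The lowest, Gemin6, had 0.280, 0.570 and 0.450 TPM.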

How the data were processed

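For every library the authors deposited 1 gene table and 2 transcript tables, the first with the columns of the gene table and the second with others, on mm10 and annotation M21 per the file headers and labels. The gene table and first transcript table hold expected counts and TPM, while per the file headers the second has estimated counts with TPM. Expected and estimated counts need not be whole, since reads shared between transcripts are split. TPM is scaled by the deposited effective length. The sources used here name neither the programs nor their versions nor the aligner. Entries that are not genes took 2.46, 0.484 and 0.327% of counts in the gene table of replicates 1, 2 and 3 and were left out of totals.

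The snRNA genes and the gene lists were chosen with earlier results of these data known. Classes were assigned with blastn 2.17.0 to named genes at 80% identity and 60% coverage, from GENCODE M21 transcript sequences, and positions come from the same annotation. Where a gene overlapped several others, the category counted was exon or intron of the same strand before the opposite strand. Detection was at least 3 counts in each library. Log2 CPM used estimated counts rounded to whole numbers, a prior count of 2, and edgeR 4.0.16 gave the TMM factors of 1.04, 0.977 and 0.980. With 1 group, values were compared by their spread over the 3 libraries and no test was run. Named genes were those whose symbol names an snRNA, the 10 highest by mean counts in each table, the 5 highest by mean TPM in each table, the 5 with the largest difference in mean counts, and the 2 highest and the lowest gene of each protein list. Sequences of U5 and U6 genes are not reported here. The SD calculation was tested on simulated data. Tools were R 4.3.3, DESeq2 1.42.0, Python 3.11.15, pandas 2.3.3 and numpy 2.4.6.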

Additional observations from a re-analysis of the deposited data

How the results depend on the processing

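With 10 instead of 3 counts in each library, 152 snRNA genes were detected in the second table and 118 in the second table only, and 38.8% of those inside introns of genes of at least 1 TPM. With 1 count, 9.28% of genes outside others were detected. The median SD of log2 CPM ranged from 0.261 to 0.306 when each library was left out in turn. Over all genes it was then also lower, at 0.157 to 0.2125 against 0.2205 with all 3 libraries. An SD over fewer libraries tends to be lower, so these values are not measures of stability. The median over snRNA genes was 0.381 with a prior count of 0.5, 0.417 with log2(TPM + 1) and 0.424 with log2(TPM + 0.1). It was 0 without a filter on low counts, where most snRNA genes are at 0. By TPM Gm25939, the leading gene by mean counts, held 6.00% of snRNA TPM in the second table. In the gene table U1, U2 and U6 held 22.0, 76.7 and 0.00180% of snRNA counts, and at 70 and 90% identity U6 held 9.56 and 2.49% in the second table. The identity limits, the settings for position and the other table for classes were chosen after seeing the data. The other 67 alternatives stayed within 1.5 times or 1 SD. For results that are a mean over the 3 libraries, leaving 1 out always stays within 1 SD. Those settings therefore say nothing about stability. No paired analysis was possible because there is 1 group, so no 2 groups share replicate numbers. Single genes are limited by depth where counts are few, and a measured 0 allows a level of up to 3 counts.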

Other observations

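Some snRNA genes with few counts changed widely between libraries, and they were chosen for that spread. Gm26127, a U6 gene opposite Golga1, had 0, 28.9 and 13.2 estimated counts in replicates 1, 2 and 3 of the second table. Gm24724, an unmatched gene opposite Add3, had 2, 3 and 31 counts. Gm22063, a U6 gene in an intron of Cbfb, had 4.87, 47.7 and 5.34 counts. At the other end, Gm24840, an unmatched gene opposite Clip1, had 18, 33.0 and 23.0 counts and the smallest SD of the 201 genes, 0.03 on the log2 scale. No test was run on these values.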
